A study of Mus musculus with 9 samples.

Results

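MHC class I and CD1d presentation was followed through 10 genes, chosen by name, with earlier results of these data known, out of the 51912 genes of the count table: B2m, H2-K1, H2-D1, Tap1, Tap2, Tapbp, Psmb8, Psmb9, Nlrc5 and Cd1d1. All 10 were found, and all 10 passed the filter on low counts in each comparison. They were measured by bulk RNA-seq in 9 samples of pre-cDCs, the committed precursors of conventional dendritic cells, sorted from mixed BM chimeras. The recipients (BL/6, CD45.1/2) were lethally irradiated and had received a 1:1 mixture of BM from BL/6 WT donors (CD45.1) and from DNGR-1 KO donors (Clec9aCre/Cre, CD45.2), whose Clec9a locus carries Cre on both alleles. Of WT cells there were 3 BM samples and 1 spleen sample, and of DNGR-1 KO cells 3 BM samples and 2 spleen samples, each pooled from a pair of mice and without further treatment. Both genotypes of BM and of spleen thus came from irradiated hosts, and the genotypes also differed by the CD45 congenic interval. Some host cells persist in such chimeras, and the CD45.1 label of the WT cells is CD45.2 in another field of the same labels.

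The MHC class I molecule is a heavy chain, here H2-K1 or H2-D1, paired with the light chain B2m. It is loaded in the endoplasmic reticulum with peptides that the proteasome has cut and that the Tap1-Tap2 transporter has carried across the membrane, while Tapbp (tapasin) holds the empty molecule at the transporter. Psmb8 and Psmb9 are catalytic subunits of the immunoproteasome, the form of the proteasome that interferons induce. Nlrc5 is the transactivator of the class I genes and acts with the RFX, CREB/ATF and NF-Y factors bound at their promoters, and Cd1d1 encodes CD1d, a class I-like molecule that also pairs with B2m and presents lipids to NKT cells. Dendritic cells use both routes to present antigen to T cells.

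The pathway genes occupy a cluster on chromosome 17 in GRCm38 (GENCODE M21 annotation). Tapbp (ENSMUSG00000024308, chr17:33915899-33929292, plus strand), H2-K1 (ENSMUSG00000061232, chr17:33996017-34000347, minus strand), Psmb9 (ENSMUSG00000096727, chr17:34181987-34187764, minus strand), Tap1 (ENSMUSG00000037321, chr17:34187553-34197225, plus strand), Psmb8 (ENSMUSG00000024338, chr17:34197721-34201454, plus strand), Tap2 (ENSMUSG00000024339, chr17:34203527-34216321, plus strand) and H2-D1 (ENSMUSG00000073411, chr17:35262730-35267499, plus strand) lie there in this order. B2m (ENSMUSG00000060802) is at chr2:122147686-122153083 on the plus strand, Nlrc5 (ENSMUSG00000074151) at chr8:94434356-94527272 on the plus strand, and Cd1d1 (ENSMUSG00000028076) at chr3:86995834-86999441 on the minus strand. The gene models of Tap1 and Psmb9 overlap on opposite strands, as do B2m and the coding gene Patl2. The coding gene Zbtb22 overlaps Tapbp on the same strand, and antisense or noncoding gene models overlap Tap2, Tapbp, Psmb8 and Nlrc5. The strand setting of the counting is not given in the sources used here, so reads of overlapping models cannot be told apart. Of the 50-base stretches in the annotated transcripts, 9.63% of those of H2-K1, 12.8% of those of H2-D1 and 19.1% of those of Cd1d1 also occurred in transcripts of other genes, so that the division of counts among class I paralogs is uncertain, whereas B2m, Psmb9 and Nlrc5 shared none.

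Promoters are shown for a heavy chain and the light chain because the transcription factors described further on are known to act there. RefSeq promoter windows (GRCm38.p6) were found for 7 of the 10 genes, the exceptions being Tap2, Nlrc5 and Cd1d1, and the stretches printed here lie before the start that RefSeq gives, outside every annotated exon of GENCODE M21, 5′ to 3′ on the strand of the gene. The windows of H2-D1, Tapbp, Psmb8 and Psmb9 start from a RefSeq position inside the longer GENCODE gene model, and are described by their motifs only, as is that of Tap1. Capitals mark matches on either strand to GGGGATT (the first bases of the κB site of class I genes), GAAACT (the core of an interferon-responsive element), TGACG (the core of a CREB/ATF site) and CCAAT (the NF-Y site), motifs that were chosen after the sequences had been read and that do not overlap one another in these stretches. H2-K1 is given at chr17:34000348-34000467 and B2m at chr2:122147537-122147646.
H2-K1: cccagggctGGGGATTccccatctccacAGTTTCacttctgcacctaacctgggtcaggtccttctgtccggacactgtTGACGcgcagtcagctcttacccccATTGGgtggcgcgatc
B2m: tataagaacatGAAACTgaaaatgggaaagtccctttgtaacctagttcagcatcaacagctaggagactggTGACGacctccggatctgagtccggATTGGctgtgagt

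The heavy chain promoters of H2-K1 and H2-D1 shared an unbroken run of 47 bases that holds GGGGATT, and of the 7 genes only these held that motif, each with 1 match. Among all 32817 promoter windows of the same length, 3.11% held it. GAAACT was in the windows of H2-K1, H2-D1, B2m and Psmb8 and in 15.8% of all windows. TGACG was in the windows of H2-K1, H2-D1, B2m, Tap1 and Psmb9 and in 20.8% of all windows, and CCAAT was in those 5 and in Tapbp, against 37.4% of all windows. The windows of Tap1 and Psmb9, which start from opposite strands, share 275 bases. A match is a description of the letters and does not show that a factor is bound.

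Total counts per sample were 17103806 to 23722298, and 3 counts were worth 0.127 to 0.180 CPM (counts relative to the TMM-scaled library size), a floor that covers counting error only. Clec9a, which encodes DNGR-1, had 905, 1574 and 1766 counts in WT BM, 1 in each DNGR-1 KO BM sample, 2459 in the WT spleen sample and 0 in both DNGR-1 KO spleen samples, as the genotype labels give. Genes with at least 10 counts numbered 12702 to 13298 in BM libraries but 10302 in WT spleen, 11609 in DNGR-1 KO spleen sample 1 and 11531 in sample 2. All 8 markers of pre-cDCs and cDCs were above 3 counts in every library, with a summed level of 2716 to 5050 CPM in BM and 1939 to 4120 CPM in spleen. Of these 8 markers 1 was called between tissues: Irf8, a transcription factor of dendritic cell development, was lower in spleen, at 625 to 1680 CPM against 2061 to 3424 CPM in BM (log2 fold change -1.35, adjusted p = 0.0202, edgeR). The 3 spleen libraries stood apart from BM in markers of other cells. The 7 T cell markers summed to 4.25 to 13.0 CPM in BM, to 689 CPM in the WT spleen sample and to 955 and 2997 CPM in DNGR-1 KO spleen samples 1 and 2, with all 7 above 3 counts in each spleen library. The 4 erythroid markers summed to 81.6 to 534 CPM in BM and 5053 to 30354 CPM in spleen. Of these, Hba-a1 and Hbb-bs were called higher in spleen, while Klf1 was called lower (log2 fold change -9.75, adjusted p = 0.0017, edgeR). Klf1 had 233 to 5625 counts in BM and 0 to 5 in spleen.

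**Figure D1:**
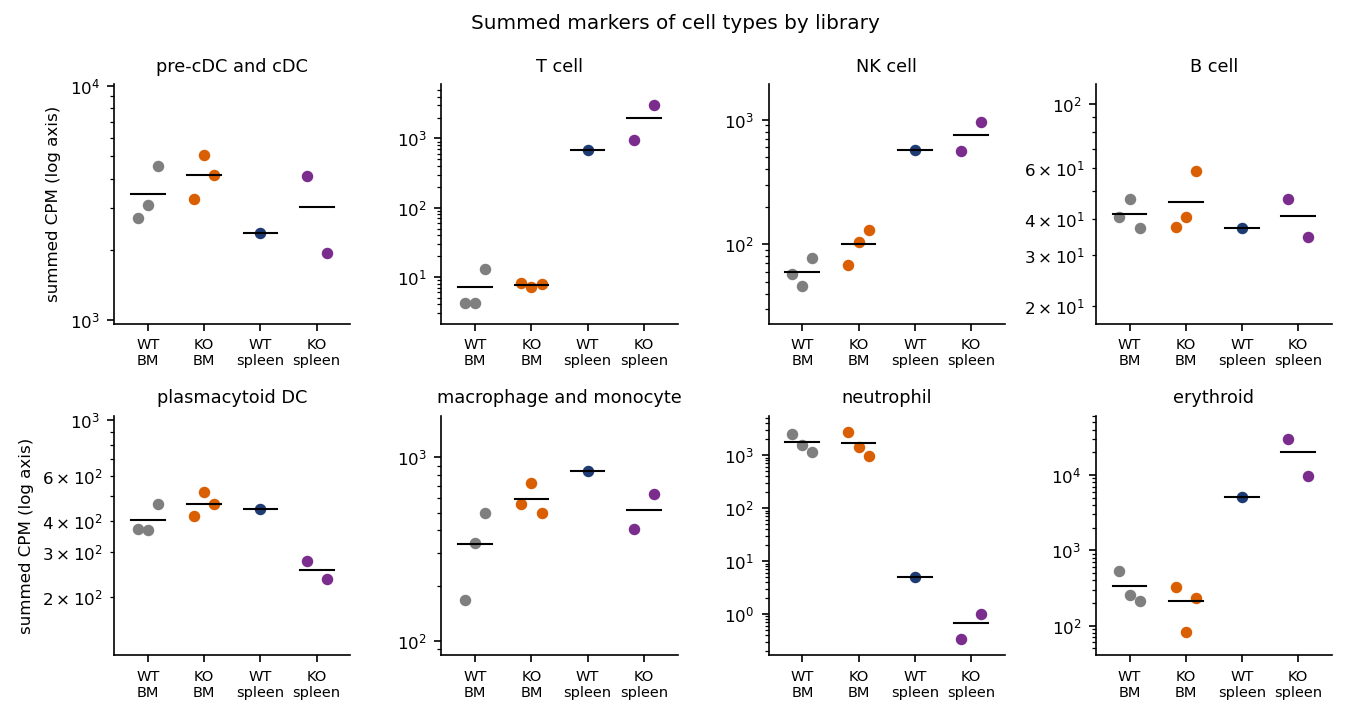
Summed CPM of the markers of each cell type (vertical axes, logarithmic) in the 9 libraries, by genotype and tissue (horizontal axis); points are libraries and lines are group means. T cell, NK cell and erythroid sums were higher in all 3 spleen libraries than in any BM library, and the neutrophil sum was higher in every BM library, at 943 CPM or more, than in spleen, at 4.95 CPM or less. Within the erythroid list, Klf1 was lower in every spleen library than in any BM library.

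The levels of the genes were first ordered within each tissue, on the scale of CPM per kb of exon. The length joins all annotated exons of a gene, for example 860 bases for B2m and 3660 for Psmb9. It is not the length of the transcripts expressed here, so the order between genes depends on the annotation. In BM the mean level was 2878 ± 623 for B2m (SD, n = 6), 1173 ± 164 for H2-D1, 300.2 ± 53.4 for H2-K1, 227 ± 41.3 for Psmb8, 173 ± 34.1 for Tapbp, 92.7 ± 18.6 for Psmb9, 52.4 ± 9.41 for Tap1, 40.8 ± 5.83 for Tap2, 9.35 ± 2.53 for Cd1d1 and 1.96 ± 0.582 for Nlrc5. On this scale the structural chains were thus the most abundant of the set and the transactivator the least. The ranges over the 6 samples overlapped for H2-K1 and Psmb8, Psmb8 and Tapbp, Psmb9 and Tap1, and Tap1 and Tap2, but within a library each pair of neighbours stood in this order in 6 of 6 libraries. In spleen the order was the same except that Tapbp, at 258 ± 26.1 (SD, n = 3), stood before Psmb8, at 237 ± 39.4, which held in 2 of 3 libraries, and their ranges overlapped. At the low end of the spleen order the ranges of Tap1 and Tap2, of Tap2 and Cd1d1, and of Cd1d1 and Nlrc5 overlapped, since Cd1d1 ran from 0 to 61.1 and Nlrc5 from 1.96 to 11.0 CPM per kb. Tap1 was above Tap2 and Cd1d1 above Nlrc5 in 2 of 3 spleen libraries, and Tap2 above Cd1d1 in 3 of 3. The 10 genes together took 0.767% to 0.982% of all counts in BM libraries and 1.42% to 1.69% in spleen libraries.

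**Figure D2:**
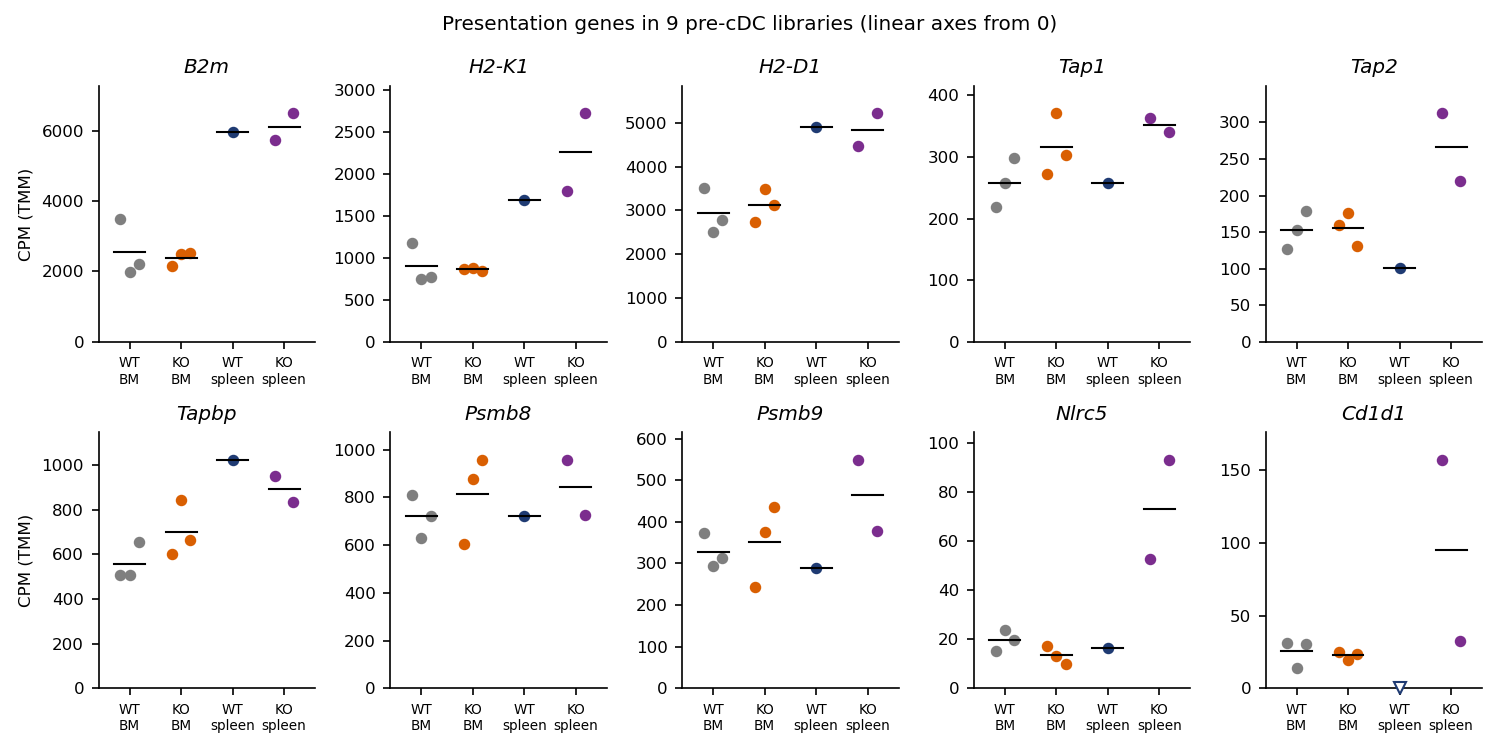
Level of each gene in CPM after TMM scaling (vertical axes, linear from 0) in the 9 libraries, by genotype and tissue (horizontal axis); points are libraries, lines are group means, and the open triangle marks the count of 0 of Cd1d1 in the WT spleen sample. B2m, H2-K1 and H2-D1 were higher in all 3 spleen libraries than in any BM library, while the Psmb8 ranges of the tissues overlapped.

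Spleen and BM pre-cDCs were compared to ask how the presentation genes differ between the site where pre-cDCs arise and a tissue that they seed. The chains of the class I molecule itself were higher in spleen: B2m, H2-K1 and H2-D1 rose by 2.47-fold, 2.32-fold and 1.60-fold. The genes that make and load the peptide, Psmb8, Psmb9, Tap1, Tap2 and Tapbp, did not pass the test, nor did Nlrc5 or Cd1d1. All 9 samples entered the fit, in which genotype was a covariate (edgeR's quasi-likelihood test, with p-values adjusted by the Benjamini-Hochberg method over 13468 genes, and log2 fold changes given with their standard error, SE). Of all genes tested, 19.5% were called, 7.28% as higher in spleen and 12.3% as lower, and among the 10 genes 3 were called, all as higher. The median log2 fold change was 0.62 over the 10 genes and -0.18 over all genes tested. All 3 called genes were also free of overlap between the tissues, which 9.15% of all tested genes were in the direction of higher in spleen.

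B2m was at 3487, 1996 and 2200.2 CPM in WT BM, 2155, 2501 and 2513 CPM in DNGR-1 KO BM, 5965 CPM in WT spleen, and 5736 and 6488 CPM in DNGR-1 KO spleen. Every spleen sample was above every BM sample, WT BM sample 1 being the highest in BM, a 2.47-fold difference (SE 0.20 on the log2 scale, adjusted p = 0.0028, edgeR). H2-K1 was at 1183, 744 and 771 CPM in WT BM, 865, 878 and 849.8 CPM in DNGR-1 KO BM, 1694 CPM in WT spleen, and 1796 and 2724 CPM in DNGR-1 KO spleen. WT BM sample 1 was again the highest BM sample and DNGR-1 KO spleen sample 2 the highest of all, without overlap between tissues, and the log2 fold change was 1.21 (SE 0.22, adjusted p = 0.0052, edgeR). H2-D1 was at 3512, 2498 and 2789 CPM in WT BM, 2727, 3499 and 3127 CPM in DNGR-1 KO BM, 4895 CPM in WT spleen, and 4469 and 5215 CPM in DNGR-1 KO spleen. Its groups did not overlap either, with a log2 fold change of 0.68 (SE 0.18, adjusted p = 0.0255, edgeR). The H2-D1 call was lost when any of 5 samples was left out: the adjusted p was 0.0536 without WT BM sample 3, 0.0550 without DNGR-1 KO BM sample 1, 0.0567 without DNGR-1 KO BM sample 3, 0.0940 without the WT spleen sample and 0.0580 without DNGR-1 KO spleen sample 2 (edgeR). It was also lost with the replicate number as a block (adjusted p = 0.138, edgeR).

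The heavy chains also differed in proportion. The ratio of H2-D1 to H2-K1, per kb of exon, was 3.38, 3.82 and 4.12 in WT BM, 3.59, 4.54 and 4.19 in DNGR-1 KO BM, 3.29 in WT spleen, and 2.84 and 2.18 in DNGR-1 KO spleen. All spleen ratios were below all BM ratios, the lowest being in DNGR-1 KO spleen sample 2. The ratio of B2m to the sum of these heavy chains was 1.76 to 2.30 in BM and 2.56 to 2.85 in spleen, again without overlap. These ratios were chosen after the values had been seen and are given without a test.

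Markers of other cells moved with this comparison. The T cell sum was highest in DNGR-1 KO spleen sample 2, at 2997 CPM, although the lineage gate of the sort excluded CD3-positive cells. That sample was also highest for B2m, H2-K1, H2-D1 and Nlrc5, but not for Tap1, Tap2, Tapbp, Psmb8, Psmb9 or Cd1d1. Lck and Cd3g were the highest T cell markers, at 0.958 to 8.40 and 0 to 0.403 CPM in BM and at 242 to 1063 and 135 to 474 CPM in spleen. The 7 NK cell markers summed to 46.2 to 131 CPM in BM and 558 to 955 CPM in spleen, led by Klrk1 and Prf1, with the defining marker Ncr1 at 0 counts in all BM samples and in the WT spleen sample, and at 281 and 253 counts in DNGR-1 KO spleen samples 1 and 2. The 5 B cell markers summed to 37.4 to 58.5 CPM in BM and 34.8 to 47.1 CPM in spleen, most of it Cd79b, with Pax5 at 0 in all spleen samples. Ms4a1, the next highest, had 0 or 1 counts in BM and 0 in WT spleen but 213 and 222 in DNGR-1 KO spleen, and was called higher in DNGR-1 KO spleen than in DNGR-1 KO BM (adjusted p = 0.0205, edgeR). The 6 macrophage and monocyte markers, led by Csf1r and Adgre1, summed to 168 to 726 CPM in BM and 409 to 839 CPM in spleen, most of it Csf1r. Of the 5 tested, 3 were called higher in spleen: Adgre1, at 1.76 to 10.1 CPM in BM and 67.3 to 124 CPM in spleen (log2 fold change 4.29, adjusted p = 0.0014, edgeR), C1qa (4.84, adjusted p = 0.0031) and C1qb (5.39, adjusted p = 0.0017), the last with 10 to 66 counts in BM and 308 to 3068 in spleen. The 5 plasmacytoid DC markers, led by Tcf4 and Siglech, summed to 366 to 519 CPM in BM and 235 to 445 CPM in spleen. Mpo and Prtn3 led the neutrophil list, Hba-a1 and Hbb-bs the erythroid list, and Irf8 and Flt3 the pre-cDC and cDC list. The leading markers are named over the libraries as a whole, and their order differed in single libraries of several lists. Prf1, for example, had 0 to 2 counts in BM and was not next after Klrk1 in every spleen library. Since T, NK and other leukocytes also express class I genes, the part of these cells in the result was not tested. In bulk samples, a different mix of cells and a different amount of RNA per cell cannot be told apart. The T cell sum was 689 CPM or more in all 3 spleen libraries and 13.0 CPM or less in BM. Leaving out a single spleen library therefore cannot decide the part of these cells. With DNGR-1 KO spleen sample 2 left out, B2m and H2-K1 were still higher in spleen, by 1.24 and 0.98 on the log2 scale (adjusted p = 0.0073 and 0.0130, edgeR), and 2 of the 10 genes were called, beside 3177 of all genes.

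The loading genes showed smaller differences. Tapbp was at 507, 509 and 653 CPM in WT BM, 599, 841 and 663 CPM in DNGR-1 KO BM, 1022 CPM in WT spleen, and 952 and 835 CPM in DNGR-1 KO spleen. Each spleen sample was above every BM sample except DNGR-1 KO BM sample 2, and the log2 fold change of 0.56 (SE 0.19) had an adjusted p of 0.0652 (edgeR), which passed the threshold under 5 of 16 alternatives. Tap1 was at 218 to 371 CPM with a median of 285 CPM in BM and at 257, 364 and 341 CPM in the WT and the DNGR-1 KO spleen samples, a log2 fold change of 0.10 (SE 0.17). Tap2 was at 127 to 179 CPM with a median of 156 CPM in BM, 101 CPM in WT spleen, and 312 and 219 CPM in DNGR-1 KO spleen. The WT spleen sample had the lowest Tap2 level of the 9 and the DNGR-1 KO spleen samples the highest, and the tissue difference was 0.31 on the log2 scale (SE 0.30). Psmb8 was at 605 to 957 CPM in BM, 723 CPM in WT spleen, and 956 and 727 CPM in DNGR-1 KO spleen, and its log2 fold change was 0.03 (SE 0.20). Psmb9 was at 244 to 435 CPM in BM, 289 CPM in WT spleen, and 549 and 378 CPM in DNGR-1 KO spleen, with a log2 fold change of 0.19 (SE 0.24).

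Nlrc5 was at 15.3, 23.9 and 19.8 CPM in WT BM, 17.5, 13.3 and 9.83 CPM in DNGR-1 KO BM, 16.6 CPM in WT spleen, and 53.0 and 93.2 CPM in DNGR-1 KO spleen. The WT spleen sample lay inside the BM range and both DNGR-1 KO spleen samples above it, and the log2 fold change over all 9 samples was 1.65 (SE 0.57, adjusted p = 0.0712, edgeR). Without the WT spleen sample it was 2.43 with an adjusted p of 0.0053 (edgeR). Cd1d1 was at 31.0, 14.3 and 30.8 CPM in WT BM, 24.8, 19.4 and 23.9 CPM in DNGR-1 KO BM, 0 in WT spleen, and 157 and 32.7 CPM in DNGR-1 KO spleen. The tissues overlapped completely for Cd1d1, with the lowest and the highest of the 9 values both in spleen, and its fitted log2 fold change of 0.90 (SE 1.58, adjusted p = 0.758, edgeR) turned to -1.03 without DNGR-1 KO spleen sample 1. Without the WT spleen sample the Cd1d1 value was 2.06 with an adjusted p of 0.0487 (edgeR).

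Inside the DNGR-1 KO genotype, where both tissues had replicates, B2m, H2-K1 and Nlrc5 were higher in spleen than in BM, by 2.55-fold, 2.60-fold and 5.37-fold. These were 3 of the 10 genes, against 9.95% called among all 13433 genes tested, of which 3.71% were higher. The log2 fold changes were 1.35 for B2m (SE 0.21, adjusted p = 0.0231), 1.38 for H2-K1 (SE 0.24, adjusted p = 0.0303) and 2.42 for Nlrc5 (SE 0.41, adjusted p = 0.0275) by edgeR's quasi-likelihood test. H2-D1, Tap2 and Cd1d1 were also higher in both spleen samples than in all 3 BM samples, as were 18.1% of all tested genes, but their adjusted p-values were 0.138, 0.108 and 0.0906 (edgeR). The median over the 10 genes was 0.70 and over all genes tested -0.07. With 5 samples the calls were fragile: leaving out any of the 3 DNGR-1 KO BM samples left 0 of the 10 genes called, as did the replicate number as a block. In the fit with all 5 samples, 6 of the 10 had an unadjusted p under 0.05 (edgeR), which 27.2% of all genes had, and 6 were called by DESeq2 and 3 by limma-voom, beside 2857 and 1777 of all genes.

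**Figure D3:**
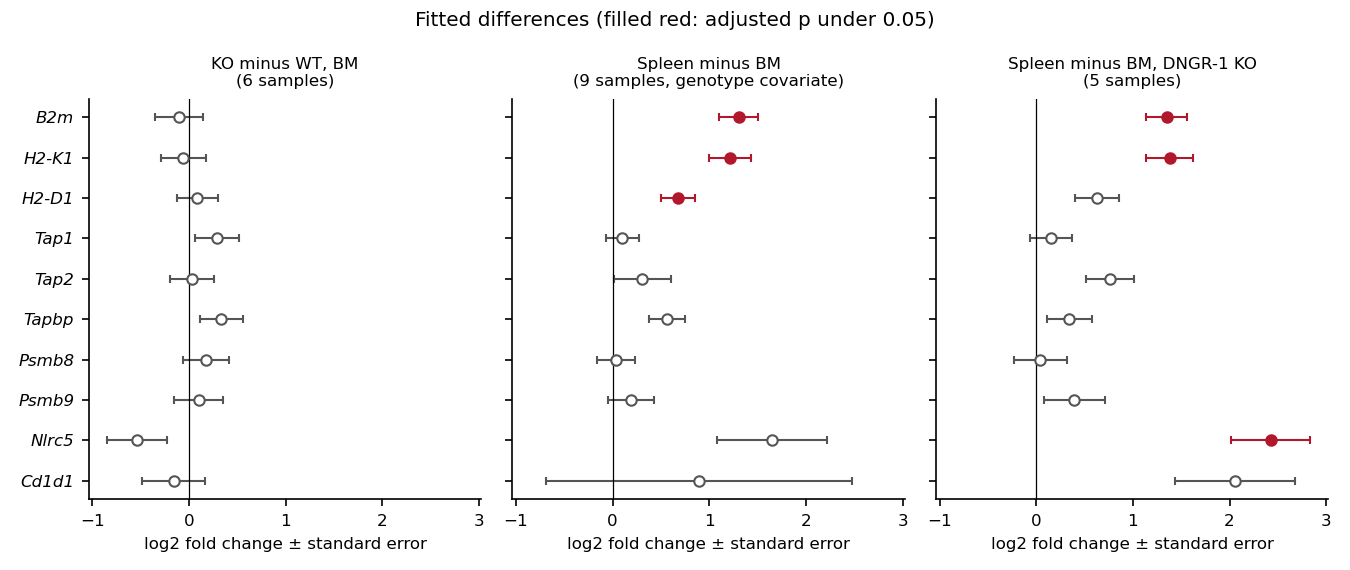
Fitted log2 fold changes with standard errors (horizontal axes) of the 10 genes (vertical axis) between genotypes in BM and between tissues, the latter over all 9 samples and in the 5 DNGR-1 KO samples; filled red points passed an adjusted p of 0.05 in edgeR. No gene passed in BM, B2m and H2-K1 passed in both tissue comparisons, H2-D1 passed in the comparison over all samples and Nlrc5 in the DNGR-1 KO samples.

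The balance of proteasome forms was then examined, since a ratio within a library does not depend on the scaling between libraries. Immunoproteasomes carry Psmb8, Psmb9 and Psmb10 in place of the constitutive catalytic subunits Psmb5, Psmb6 and Psmb7. The ratio of the summed levels of the former to the latter, in CPM per kb of exon, was 0.577, 0.669 and 0.789 in WT BM, 0.675, 0.988 and 0.747 in DNGR-1 KO BM, 1.73 in WT spleen, and 1.60 and 1.74 in DNGR-1 KO spleen. All BM ratios were below 1 and all spleen ratios above it. The place of a ratio relative to 1 depends on the annotated exon lengths, so it does not show which form prevailed in a tissue. The spleen ratio was 2.31-fold higher, a log2 difference of 1.21 (p = 0.0119 by a two-sided exact permutation test, where 84 splits allow no smaller value). Each pair of subunits alone moved the same way with the same p, by 2.03-fold for Psmb8 over Psmb5, 1.94-fold for Psmb9 over Psmb6 and 3.41-fold for Psmb10 over Psmb7. In the 5 DNGR-1 KO samples alone the difference was 1.07 on the log2 scale with an exact p of 0.1, the smallest that 10 splits allow.

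Single subunits of both forms differed between the tissues. Psmb5 was at 213 to 398 CPM in BM and 142, 158 and 116 CPM in spleen, and fell by 0.95 on the log2 scale (SE 0.24, adjusted p = 0.0248, edgeR). Psmb6 was at 270.2 to 448 CPM in BM and 183, 213 and 199 CPM in spleen, with a log2 fold change of -0.77 and an adjusted p of 0.0531. Psmb7 was at 221 to 356 CPM in BM and 126, 235 and 112 CPM in spleen, with -0.79 and an adjusted p of 0.0946. Psmb10 was at 120.2 to 195 CPM in BM and 365, 239 and 255 CPM in spleen, and rose by 0.95 on the log2 scale (SE 0.23, adjusted p = 0.0195, edgeR). Between the genotypes in BM the summed ratio differed by 0.24 on the log2 scale, with means of -0.34 ± 0.28 in DNGR-1 KO and -0.57 ± 0.23 in WT (SD, n = 3 each), which was not beyond the spread (exact permutation test, two-sided, p = 0.4, with 0.1 the smallest that 20 splits allow). Of the single pairs, Psmb10 over Psmb7 was at 1.09, 1.24 and 1.17 in DNGR-1 KO BM and 1.07, 1.01 and 1.09 in WT BM, a log2 difference of 0.15 with all DNGR-1 KO ratios above all WT ratios (exact p = 0.1), while the exact p was 0.3 for Psmb8 over Psmb5 and 0.7 for Psmb9 over Psmb6.

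**Figure D4:**
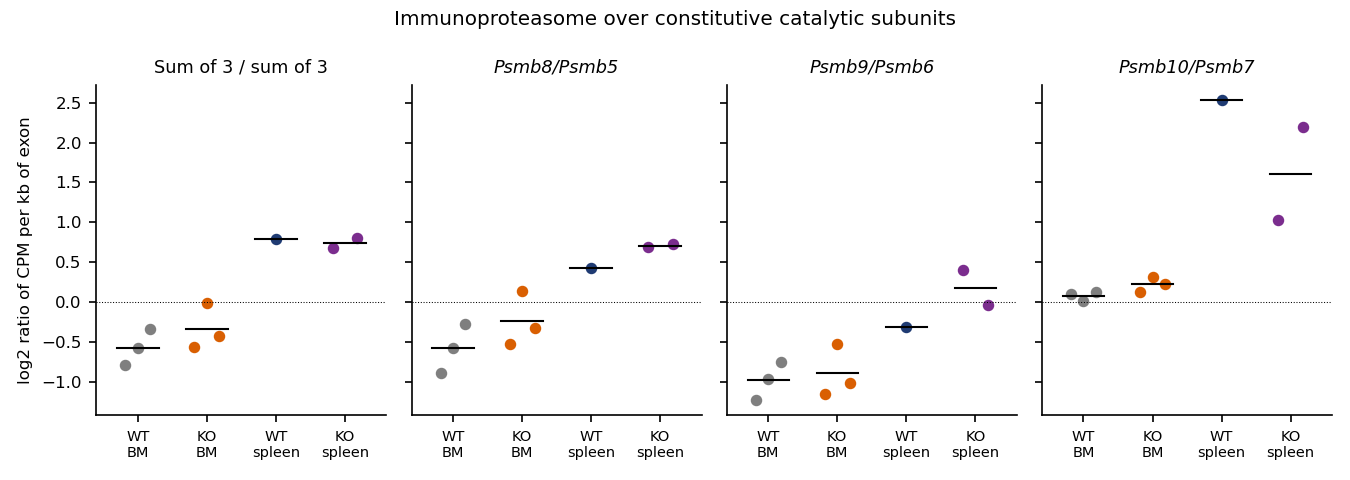
Log2 ratio of immunoproteasome to constitutive catalytic subunits in CPM per kb of exon (vertical axis) in the 9 libraries, by genotype and tissue (horizontal axis), for the sums of 3 subunits and for each pair; points are libraries and lines are group means. The sums lay above 0 in all 3 spleen libraries and below 0 in all 6 BM libraries, but the place of 0 depends on the annotated exon lengths.

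The other genes of the pathway were described from 5 lists holding 43 genes, of which 42 were tested. In the tissue comparison 10 were higher and 3 lower in spleen, and 29 did not pass the test. The 8 genes of peptide loading and the endoplasmic reticulum, among them the chaperones Calr and Canx and the trimming peptidase Erap1, included 0 called genes (edgeR; 4 of the 8 had an unadjusted p under 0.05, against 33.5% of all genes). Their log2 fold changes ran from -0.54 to 0.71, with -0.46 for Calr, -0.54 for Canx, 0.71 for Erap1 and 0.54 for Tapbpl, the 4 of lowest p. The heavy chains of other class I and class I-like molecules held 5 of the 10 higher genes: of 11 tested, H2-Q10, H2-Q6, H2-Q7, H2-M3 and Hfe rose and none fell, and the median was 0.81. The CD1d lipid loading list, with lipid transfer proteins and saposins, had 1 of 6 called, Gm2a, and the proteasome list 2 of 7, Psmb10 and Psmb5. The transcription factor list held 3 higher and 2 lower genes among 10. For comparison, MHC class II genes had 2 of 7 called, Cd74 and H2-Eb1, with a median of 1.82, and interferon-stimulated genes 4 of 8, with a median of 1.58, each beside 19.5% called and a median of -0.18 among all genes.

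H2-Q10, a class I heavy chain that is secreted, was counted 5 to 17 times in BM samples, 143 times in WT spleen, and 112 and 926 times in DNGR-1 KO spleen, a log2 fold change of 5.23 (SE 0.82, adjusted p = 0.0028, edgeR). H2-Q6 was at 19.8 to 59.0 CPM in BM, 58.9 CPM in WT spleen, and 217 and 353 CPM in DNGR-1 KO spleen, a log2 fold change of 2.27 (SE 0.49, adjusted p = 0.0118, edgeR). The WT spleen sample thus lay at the upper edge of the BM range for H2-Q6, and DNGR-1 KO spleen sample 2 was the highest for both Q genes, as for H2-K1. Hfe, a class I-like molecule of iron regulation, was at 11.1 to 26.9 CPM in BM, 176 CPM in WT spleen, and 77.4 and 43.5 CPM in DNGR-1 KO spleen, a log2 fold change of 2.45 (SE 0.46, adjusted p = 0.0065, edgeR). Here the WT spleen sample was the highest of the 3. When H2-K1, H2-D1 and the listed H2-Q and H2-T genes were summed to a single feature before the fit, the sum was higher in spleen by 0.86 on the log2 scale (SE 0.19, adjusted p = 0.0113, edgeR), and in the 5 DNGR-1 KO samples by 0.91 with an adjusted p of 0.0617.

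Among the factors that act on class I promoters, Irf1, an activator at interferon-responsive elements like those printed for H2-K1 and B2m, and Irf2, which binds the same elements and can compete with Irf1, were higher in spleen. Irf1 was at 44.0 to 79.1 CPM in BM, 142 CPM in WT spleen, and 129 and 313 CPM in DNGR-1 KO spleen, a log2 fold change of 1.48 (SE 0.27, adjusted p = 0.0052, edgeR). Irf2 was at 27.5 to 59.7 CPM in BM, 154 CPM in WT spleen, and 88.7 and 119 CPM in DNGR-1 KO spleen, a log2 fold change of 1.37 (SE 0.27, adjusted p = 0.0077, edgeR). Neither overlapped between tissues. In contrast, Rfx5 and Rfxap, subunits of the RFX complex through which Nlrc5 acts, had 0 counts in all 3 spleen samples. Rfxank, the remaining RFX subunit, went the other way. It was at 19.5 to 29.4 CPM in BM, 32.1 CPM in WT spleen, and 51.0 and 32.9 CPM in DNGR-1 KO spleen. The tissues did not overlap, but it was not called (log2 fold change 0.61, SE 0.28, adjusted p = 0.169, edgeR). Rfx5 was counted 63 to 219 times and Rfxap 12 to 39 times in BM samples. Against the highest spleen floor of 3 counts per library, their mean BM levels were at least 33.1-fold and 7.66-fold higher (adjusted p = 0.0020 and 0.0051, edgeR). These bounds hold for the BM means and are smaller for the lowest BM samples. Other genes were also at or near 0 in single spleen libraries, as counted below, and H2-Q4, Mr1 and Gla were at 0 in the WT spleen sample, Mr1 also in DNGR-1 KO spleen sample 1.

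**Figure D5:**
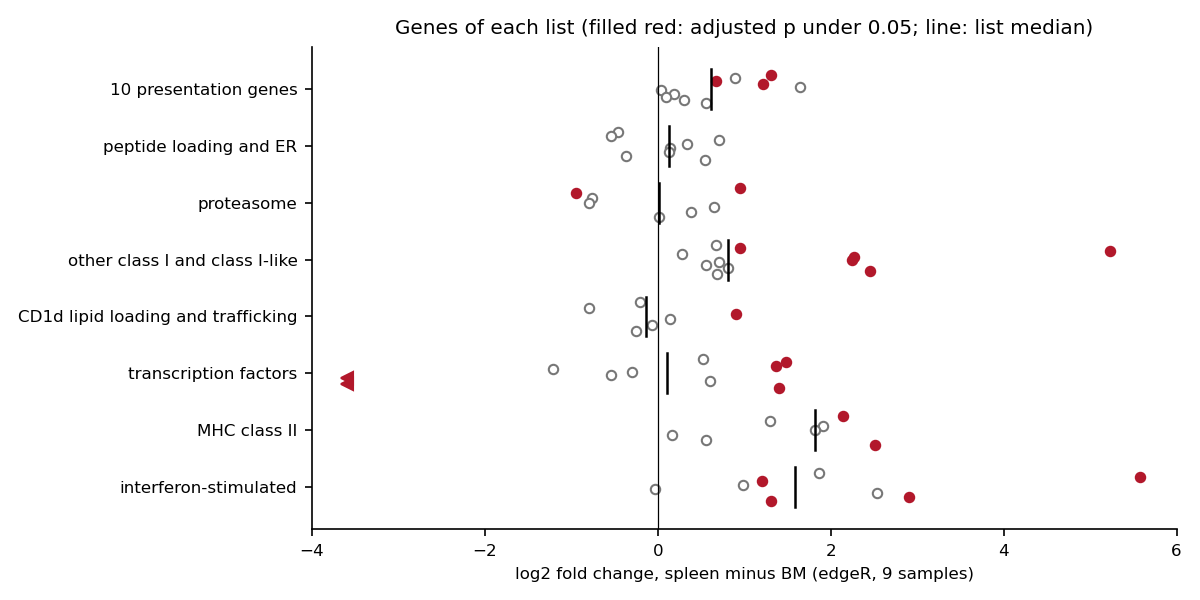
Fitted log2 fold changes between spleen and BM (horizontal axis) of the tested genes of each list (vertical axis); each point is a gene, filled red where the adjusted p was under 0.05 in edgeR, vertical lines are list medians, and the arrowheads at the left stand for Rfx5 and Rfxap, which had 0 counts in spleen and are not drawn to scale. The list of other class I and class I-like genes had 5 called genes, all to the right of 0, while the peptide loading list had none.

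WT and DNGR-1 KO pre-cDCs of the BM were compared to ask whether the loss of DNGR-1 alters these genes where pre-cDCs are made. No difference was detectable: 0 of the 10 genes were called by edgeR, DESeq2 or limma-voom, 0 had an unadjusted p under 0.05 (edgeR), and the genotype groups overlapped for all 10. Among all 13016 genes tested 0.0307% were called, 3.83% had an unadjusted p under 0.05, and 9.47% of the 13468 genes of the tissue comparison had genotype groups in BM that did not overlap. The 10 log2 fold changes ran from -0.54 to 0.33 with a median of 0.06. Nlrc5 had the lowest, -0.54 (SE 0.31, adjusted p = 0.861, edgeR), and Tapbp the highest, 0.33 (SE 0.22, adjusted p = 0.861). B2m differed by -0.10 (SE 0.25), H2-K1 by -0.06 (0.23), H2-D1 by 0.09 (0.21), Tap1 by 0.29 (0.22), Tap2 by 0.03 (0.23), Psmb8 by 0.17 (0.24), Psmb9 by 0.10 (0.25) and Cd1d1 by -0.16 (0.33). Of the pathway lists 41 genes were tested and 0 were called (edgeR), with a median log2 fold change of 0.28, against -0.0045 over all genes tested.

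In spleen the genotypes were compared by value, without a test of their own, since there was 1 WT sample. There, 7 of the 10 genes were higher in both DNGR-1 KO samples than in the WT sample, which 33.2% of all tested genes were. These were H2-K1, Tap1, Tap2, Psmb8, Psmb9, Nlrc5 and Cd1d1, while Tapbp was lower in both, as were 28.8% of all genes, and B2m and H2-D1 had the WT sample between them. Nlrc5 was 3.18-fold and 5.60-fold higher in DNGR-1 KO spleen samples 1 and 2 than in the WT sample, and Tap2 3.09-fold and 2.17-fold. Psmb9 was 1.90-fold and 1.31-fold higher, Tap1 1.41-fold and 1.32-fold, and H2-K1 1.06-fold and 1.61-fold. Psmb8 differed by 1.32-fold and 1.01-fold, the latter a difference of 727 from 723 CPM. Tapbp was at 0.931 and 0.817 of the WT level. Markers of other cells differed here as well. The T cell sum was 689 CPM in the WT sample and 955 and 2997 CPM in the DNGR-1 KO samples, and the erythroid sum was 5053, 30354 and 9571 CPM. Of the spleen samples, only the WT sample had 0 counts of Ncr1 and Ms4a1. Macrophage and monocyte, plasmacytoid DC and neutrophil sums were lower in both DNGR-1 KO samples. The part of these cells in the genotype differences was not tested.

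Cd1d1 differed most. Its counts were 2793 in DNGR-1 KO spleen sample 1, 771 in sample 2 and 0 in the WT sample, where a count of 0 allows up to 3 counts or 0.179 CPM. Against that floor sample 1 was at least 878-fold and sample 2 at least 183-fold higher than the WT spleen sample, although the DNGR-1 KO samples themselves differed from 157 to 32.7 CPM. Such gaps were more frequent in the WT spleen library than in the other libraries. Both DNGR-1 KO spleen libraries held 100 counts or more of 8389 genes, and 509 of these (6.07%) had 3 counts or fewer in WT spleen. Measured in the same way against the other spleen libraries, the share was 1.92% (149 of 7757 genes) for DNGR-1 KO spleen sample 1 and 1.82% (140 of 7691) for sample 2. It was 0 to 0.0862% for BM libraries, each against the other libraries of its genotype in BM. The part of this in the Cd1d1 and Rfx5 values was not tested. Cd1d2, the paralog that shares sequence with Cd1d1, had 0 to 10 counts in every library and did not pass the filter.

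The test of whether the genotype difference itself differed between spleen and BM, an interaction fitted over all 9 samples in which the lone WT spleen sample is assumed to vary like the other groups, called 2 of the 10 genes, both in the direction of higher, against 8.85% of all 13468 genes and 7.05% in that direction. These were Cd1d1 (adjusted p = 0.0041, edgeR) and Nlrc5, with a log2 difference of 2.67 (SE 0.69, adjusted p = 0.0469, edgeR). The Nlrc5 call was lost under 11 of 14 alternatives, with adjusted p-values from 0.0025 to 0.115, and the Cd1d1 call under 1 of 13. limma-voom made neither call, with adjusted p-values of 0.0904 for Nlrc5 and 0.158 for Cd1d1. Since the WT spleen arm is 1 library, these p-values hold no measure of the spread between WT spleen samples, and no genotype difference is concluded from them. Tap2 had a log2 difference of 1.37 (SE 0.43, adjusted p = 0.0948, edgeR), and the other 7 genes lay between -0.53 and 0.58 with adjusted p-values of 0.450 or more. Over all genes tested the median of this contrast was 0.29, and over the 10 genes 0.32. The contrast shares the WT spleen sample with the comparison by value, so the results are not independent.

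The genes whose pattern was most like that of 4 of the presentation genes were found by the root mean square difference of log2 CPM, centred per gene, over the 9 samples and among 13467 other genes. For H2-K1 they were Gnptg (0.14), B2m (0.16), itself one of the 10, and Afmid (0.18). For Psmb9 they were Ccdc12 (0.11), Arl3 (0.13) and Tmem221 (0.14), with Psmb8 in place 5 (0.16). For Nlrc5 they were Tmem191c (0.34), D16Ertd472e (0.37) and Rapgef6 (0.41), and for Cd1d1 Rab3ip (0.57), Mindy2 (0.60) and Tbc1d20 (0.63). Of the 10 genes the nearest to Nlrc5 was H2-K1, in place 208, and the nearest to Cd1d1 was Tap2, in place 2248.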

How the data were processed

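Pre-cDCs were sorted, total RNA was depleted of ribosomal RNA and the libraries were sequenced with DNBSEQ technology, and the samples were grouped by tissue and genotype labels. The authors deposited expected counts per gene, not normalized (25.6% of those above 0 had decimals), and all columns belonged to the 9 samples. The submitters' processing notes name Trimmomatic 0.36, STAR 2.5.2, RSEM 1.3.0 and GRCm38. A transformed table was not used. The design assumed raw counts, so values were rounded to whole numbers. Symbols and exon lengths came from GENCODE M21 (51719 of 51912 identifiers matched).

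Counts were normalized by TMM, filtered by filterByExpr and tested in R 4.3.3 with edgeR 4.0.16 (quasi-likelihood test, Benjamini-Hochberg adjustment over all genes tested, threshold 0.05). log2 CPM used a prior count of 2. Alternatives were DESeq2 1.42.0, limma 3.58.1 (voom), DESeq2 size factors, other count filters, the replicate number as a block, a congenic score or interval, summed heavy chains and each sample left out. Ratios were tested by exact permutation (Python 3.11.15). Fits were tested on simulated data.

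The genes and lists were chosen with earlier results of these data known. Named were the 10 genes, the 6 pathway genes of lowest adjusted p in each direction of the tissue comparison, the catalytic proteasome subunits, Cd1d2, the 2 highest markers of each list, and the 3 genes of most similar pattern. H2-Q4, H2-Q7, H2-M3, Gm2a, Mr1, Gla, Calr, Canx, Erap1, Tapbpl, Pdia3, Hspa5, Lnpep, Sec61a1, Psme3, Rfxank, Cd74, C1qa, C1qb, Klf1, Ncr1, Pax5 and H2-Eb1 were named after their values were seen. A gene that the rule names and a marker are not reported here. By the study's description the mice were fewer than separate pools would need, so samples of different groups shared hosts, in a way the labels do not give, and p-values measure only the spread between these samples.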

Additional observations from a re-analysis of the deposited data

Results flagged for a closer look

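For 2 of the 10 genes edgeR's interaction test called the difference between DNGR-1 KO and WT pre-cDCs as unequal in spleen and BM, as it did for 8.85% of all genes, 7.05% as higher. The test assumes that the lone WT spleen sample varies like the other groups, and limma-voom made neither call, so no genotype difference is concluded from it. Cd1d1 had a fitted log2 difference of 14.02 between the genotype effects (adjusted p = 0.0041), a size that depends on the prior count because the WT spleen sample had 0 counts, while it was higher than WT in 2 of 2 DNGR-1 KO spleen samples. Nlrc5 had a log2 difference of 2.67 (adjusted p = 0.0469), a call that was lost under 11 of 14 alternatives, with a genotype difference of -0.54 in BM and levels of 53.0 and 93.2 CPM in DNGR-1 KO spleen against 16.6 CPM in WT spleen. Both values rest on a single WT spleen library, which had 509 of 8389 genes at 3 counts or fewer that were at 100 counts or more in both DNGR-1 KO spleen samples, and the part of that library in them was not tested. T cell and erythroid marker sums were also lower in that library than in both DNGR-1 KO spleen samples, while macrophage and monocyte, plasmacytoid DC and neutrophil sums were higher. Within the macrophage and monocyte list, C1qa and C1qb were lower in that library, against the direction of the sum. The part of these cells in both values was not tested either.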

How the results depend on the processing

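B2m and H2-K1 stayed higher in spleen and past the threshold under all 16 alternatives fitted to each gene itself, over ranges of 1.24 to 1.41 and 0.98 to 1.38 on the log2 scale. The H2-D1 call was lost under 6 of 16 (5 samples left out, and the block below), with adjusted p-values up to 0.138. None of the 10 genes was called between genotypes in BM under any of 15 alternatives. Counts of the 10 genes were 196 or more in all samples, except 0 for Cd1d1 in the WT spleen sample, and no comparison at matched depth was made. Where a value moved, the cause was not tested.

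Calls between genotypes in BM numbered 4, and 11 by DESeq2, 10 with no filter on low counts, 1 with the congenic interval left out and 2 to 15 with 1 sample left out (15 without DNGR-1 KO BM sample 1, and 2 without WT BM sample 2 or 3 or DNGR-1 KO BM sample 2 or 3). Calls between tissues numbered 2631. Of the 10 genes 3 were called between tissues, 5 by DESeq2 (beside 3946 of all genes) and 5 without the genotype covariate (beside 3204). Within DNGR-1 KO samples 1336 genes were called, 2857 by DESeq2 and 0 to 3813 with 1 sample left out, and of the 10 genes 3, 6 and 0 to 5. The count was 135, 140 and 0 without DNGR-1 KO BM samples 1, 2 and 3, and 3813 and 3160 without spleen samples 1 and 2. The interaction called 1192 genes, 2190 by DESeq2, 0 by limma-voom, 167 with at least 10 counts in every sample, and 831 to 2704 with 1 sample left out (2704 and 2456 without DNGR-1 KO spleen samples 1 and 2). It could not be fitted without the WT spleen sample. The immunoproteasome ratio differed by 1.07 (exact p = 0.1) in DNGR-1 KO samples alone.

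Some values changed sign, none of them past the threshold on the side it turned to. In BM, with the congenic score as a covariate, B2m was 0.0828, H2-K1 0.0914 and Tap2 -0.0733, and the summed heavy chains gave 0.0762. With 1 sample left out the BM genotype values ran from -0.25 to 0.19 for B2m, -0.18 to 0.19 for H2-K1, -0.0150 to 0.24 for H2-D1, -0.0885 to 0.16 for Tap2, -0.0784 to 0.31 for Psmb9 and -0.44 to 0.0146 for Cd1d1. The tissue values ran from -0.0651 to 0.12 for Psmb8, -0.0213 to 0.39 for Psmb9 and -1.03 to 2.06 for Cd1d1 (past the threshold, adjusted p = 0.0487 by edgeR, only without the WT spleen sample), and within DNGR-1 KO samples Psmb8 ran from -0.17 to 0.21.

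Same-numbered WT and DNGR-1 KO BM samples did not deviate together (correlations of 0.10, 0.10 and -0.08), nor did same-numbered DNGR-1 KO samples of BM and spleen (-0.05 and -0.02), so the numbers were not taken to pair the samples, which does not show that pools had separate hosts. When that number entered as a block, 1246 genes were called between tissues, 2 of the 10 among them, 0 within the DNGR-1 KO genotype, 0 of the 10 among them, and 635 in the interaction, and the BM ratio kept its difference of 0.24 (exact p = 0.5).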
